A study of Homo sapiens with 8 samples.

Results

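The comparison described here is that of AL_DCF with ST_DCF, the effect of an air and liquid stimulus on cells that were all given diclofenac. The cells are HCE-T, an established human corneal epithelial cell line immortalized with a viral antigen, grown for 7 days as a barrier in the upper channel of a microfluidic device. In AL_DCF, air and medium were then pushed in turn across the apical face of the cells for 24 h with 50 µM diclofenac (DCF). In ST_DCF, the channel was left static for 24 h with the same 50 µM DCF, so that both groups carry the drug. DCF is a non-steroidal anti-inflammatory drug that blocks the cyclooxygenases. All cells shared a medium with serum, insulin, epidermal growth factor and dimethyl sulfoxide. The series also holds AL and ST, the same stimulus and static culture without DCF, so that 4 of its 8 libraries belong to the comparison, with 2 libraries in each group (n = 2), described as independent biological samples in the study's methods. A single cell line was used, and the extraction note in the labels names myoblasts although every other label says HCE-T.

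All genes of the count table that passed a filter on low counts were described, 17445 of 18430. Total counts per library were 44507082 and 46369412 in AL_DCF, against 37954695 and 34042094 in ST_DCF. Every AL library of the series was deeper than every static one, so depth and stimulus go together here, and the part of depth was examined by thinning all libraries to the smallest total of 32880479 counts, after which 1599 genes were higher and 1950 lower in place of the 1636 and 1983 given below. Levels are given as CPM, the count of a gene scaled to the library total multiplied by its TMM factor, and differences as log2 fold changes with their standard error (SE) and a Benjamini-Hochberg adjusted p, for which edgeR's quasi-likelihood method was fitted to all 8 libraries. A gene was called, or said to have risen or fallen, at an adjusted p under 0.05. An exact permutation test of 2 libraries against 2 cannot go below p = 0.333, so none is given.

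The corneal epithelium is a stratified epithelium that meets air and the tear film. Tight junctions, adherens junctions and desmosomes seal and bind its cells, membrane-spanning mucins hold the tear film, and transcription factors of the ELF, GRHL and OVOL families maintain the epithelial programme, in part by holding back mesenchymal genes. Force on a cell opens ion channels such as the PIEZO proteins and within minutes switches on immediate early genes such as FOS and EGR1, which encode transcription factors, while cytokines such as IL-6 and the CXCL chemokines carry the alarm to other cells. DCF acts upstream of the prostaglandin synthases, enzymes that turn the product of cyclooxygenase into single prostaglandins.

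The label of the cells was checked against epithelial markers. EPCAM, an adhesion protein of epithelial cells, had 38.1 and 42.0 CPM in AL_DCF, against 159 and 133 CPM in ST_DCF. PAX6, the eye field transcription factor, had 12.2 and 12.9 CPM in AL_DCF, against 10.0 and 9.38 CPM in ST_DCF. Markers of the basal and of the mature corneal epithelium were uneven. KRT5, the keratin of basal layers, had 24.3 and 21.5 CPM in AL_DCF, against 107 and 73.8 CPM in ST_DCF. TP63, a transcription factor of basal layers, had 0.448 and 0.328 CPM in AL_DCF, against 0.625 and 0.500 CPM in ST_DCF, and ALDH3A1 had 0.672 and 0.854 CPM, against 0.964 and 0.676 CPM. The corneal keratins KRT3 and KRT12 were looked for and were not among the genes tested. Of the 6 skeletal myoblast markers, only DES was among the genes tested, with 1.08 and 0.985 CPM in AL_DCF, against 0.521 and 0.853 CPM in ST_DCF.

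AL_DCF differed from ST_DCF in 3619 genes, or 20.7% of those tested. Of these, 1636 (9.38%) were higher and 1983 (11.4%) were lower in AL_DCF, while a fit to the 4 libraries of the comparison alone called 562 higher and 1331 lower. Genes that fell did so by more: at a change of at least 2-fold, 740 called genes (4.24%) were lower and 175 (1.00%) were higher. The shares of 9.38% higher and 11.4% lower are the background for the counts of group members given below. The median log2 fold change over all genes was 0.01, a value that the scaling sets near 0. AL_DCF libraries lay at a mean distance of 77.8 from ST_DCF libraries in log2 CPM, while the distance between replicates was 50.2 and 54.0 in the same unit. The 1st principal component, with 48.4% of the variance, split AL from static libraries, and the 2nd, with 12.9%, set ST_DCF replicate 1 at −34.5, apart from the rest. Both AL_DCF libraries lay above both ST_DCF libraries in 28.0% of the genes tested and below them in 27.2%. Leaving out AL_DCF replicate 2 left 961 genes higher and 1396 lower, and leaving out ST_DCF replicate 1 left 1144 and 1495.

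**Figure D1:**
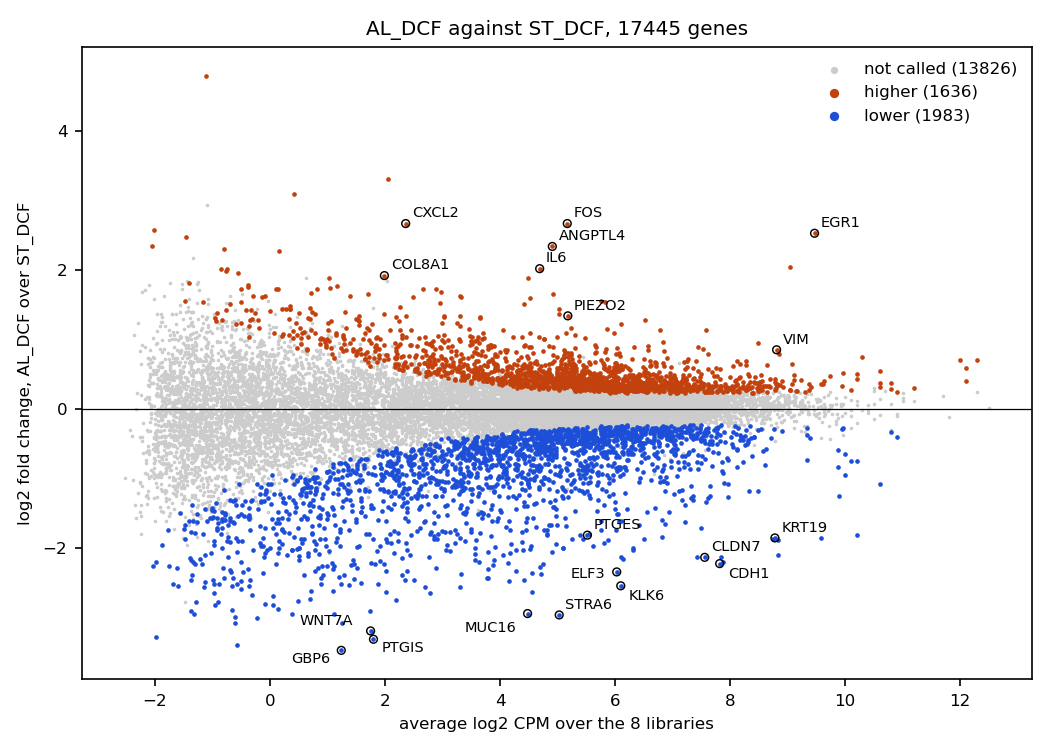
Log2 fold change of AL_DCF over ST_DCF on the vertical axis against the average log2 CPM over the 8 libraries on the horizontal axis, 1 point per gene, with called genes in colour. The 1983 lower genes reach further from 0 than most of the 1636 higher ones, with KLK6, CDH1, CLDN7 and KRT19 among well expressed genes that fell and EGR1 above the others of its level.

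Among the genes that rose the most were the immediate early genes EGR1 and FOS and the chemokine CXCL2. EGR1, a zinc finger transcription factor on chromosome 5 (138465479 to 138469303, GRCh38.p14), had 1329 and 1248 CPM in AL_DCF, against 209 and 239 CPM in ST_DCF. FOS, a subunit of the AP-1 transcription factor, had 72.8 and 51.8 CPM in AL_DCF, against 8.44 and 11.2 CPM in ST_DCF. The AL_DCF libraries were several fold above the static ones for both genes, with log2 fold changes of 2.53 for EGR1 (SE 0.10, adjusted p = 6.58e-08) and 2.67 for FOS (SE 0.18, adjusted p = 1.77e-06). IER2 had 284 and 253 CPM in AL_DCF, against 113 and 130 CPM in ST_DCF, a log2 fold change of 1.14 (SE 0.09, adjusted p = 7.96e-06). JUN, which pairs with FOS, had 207 and 170 CPM in AL_DCF, against 114 and 115 CPM in ST_DCF, a log2 fold change of 0.72 (SE 0.10, adjusted p = 0.000311). Of 22 immediate early genes, 7 rose, 3 fell and 12 did not pass the test, with a median of 0.34. The 3 that fell became 1 without AL_DCF replicate 2 or without ST_DCF replicate 1. The group did not move as a whole, since EGR3 and FOSL1, of the same 2 families as EGR1 and FOS, had log2 fold changes of −0.91 and −0.61. DUSP1, a phosphatase that switches off MAP kinases, stood high in AL_DCF with 125 and 56.6 CPM, against 32.3 and 30.0 CPM in ST_DCF. Its log2 fold change was 1.54 (SE 0.27, adjusted p = 0.00189), while DUSP5, which acts on ERK in the nucleus, fell by 0.79 (SE 0.10, adjusted p = 0.000199). In all, 3 of 16 genes of feedback on ERK rose and 3 fell, of which 1 and 1 were left without AL_DCF replicate 2. The 3 that fell also became 1 without ST_DCF replicate 1 or without any single AL or ST library.

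Promoters of the immediate early genes are known for CArG boxes, the sites of serum response factor. The stretch of 150 bases before the start of EGR1 is shown because EGR1 rose the most among genes of its level, with the 2 matches to the CArG box (a C-C, 6 letters A or T, then G-G, both strands searched) in capitals, 105 and 83 bases before the start. It lies at chr5:138465329-138465478 on the plus strand (RefSeq, GRCh38.p14).
EGR1: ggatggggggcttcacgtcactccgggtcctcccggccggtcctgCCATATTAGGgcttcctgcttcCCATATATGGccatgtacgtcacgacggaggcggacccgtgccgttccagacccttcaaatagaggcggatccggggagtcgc
The 7 immediate early genes that rose had 9 promoter windows of 300 bases (250 before to 50 after a start), and 2 of the windows, from 2 genes, held a CArG box. Of all 35116 windows, 1.29% held this motif. The match is a description of the letters, and binding was not measured.

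Of 15 genes for mechanosensitive channels, 2 rose and 2 fell, and the 2 that rose became 1 without AL_DCF replicate 1 or ST_DCF replicate 2. The 2 that fell became 5 without AL_DCF replicate 1, and 1 without AL_DCF replicate 2 or ST_DCF replicate 1. Over all genes 9.38% were higher and 11.4% lower, so the calls among these channels lay near the background. PIEZO2, a mechanosensitive channel, had 48.3 and 56.5 CPM in AL_DCF, against 20.5 and 20.9 CPM in ST_DCF (log2 fold change 1.34, SE 0.10, adjusted p = 4.02e-06). KCNK2, a potassium channel gated by stretch, had 3.43 and 2.71 CPM in AL_DCF, against 1.90 and 1.03 CPM in ST_DCF, a log2 fold change of 1.06 (SE 0.29, adjusted p = 0.0247). That call was lost without AL_DCF replicate 1 or without ST_DCF replicate 2. TRPV6, a calcium channel of epithelia, moved the other way, with 0.762 and 0.700 CPM in AL_DCF, against 3.93 and 3.09 CPM in ST_DCF (log2 fold change −2.26, SE 0.31, adjusted p = 0.000356). TRPV3, a warmth-gated channel of keratinocytes, had a log2 fold change of −0.62 and did not pass the test (SE 0.21, adjusted p = 0.0624). CCN1, a matricellular protein and a known target of the YAP coactivator, rose (547 and 480 CPM in AL_DCF, against 299 and 232 CPM in ST_DCF, log2 fold change 0.95, SE 0.12, adjusted p = 0.000188). Of 20 YAP and TEAD targets 4 rose and 7 fell, so CCN1 does not stand for the group. F3, the initiator of blood clotting, was among those that fell, with 98.7 and 91.7 CPM in AL_DCF, against 265 and 198 CPM in ST_DCF.

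The widest change was a fall of genes shared by many epithelia. Corneal epithelial identity genes did not follow as a group. Of 11 tested, 1 rose and 3 fell, with a median log2 fold change of −0.11, beside 9.38% higher and 11.4% lower over all genes. CLU was the 1 that rose (0.49, SE 0.09, adjusted p = 0.00217), while KRT5, FOXC1 and WNT7A fell. Of 15 transcription factors and splicing regulators of epithelia, 12 fell and none rose, with a median log2 fold change of −1.16 beside 0.01 over all genes, and 10 to 13 fell when any library was left out. ELF3, an ETS factor of surface epithelia on chromosome 1 (202010587 to 202017183), had 23.9 and 21.6 CPM in AL_DCF, against 116 and 115 CPM in ST_DCF, a log2 fold change of −2.35 (SE 0.09, adjusted p = 6.58e-08). EHF, its close relative, had 23.3 and 22.6 CPM in AL_DCF, against 89.0 and 86.3 CPM in ST_DCF (log2 fold change −1.93, SE 0.09, adjusted p = 1.25e-07). Replicates of both genes lay close together and the groups were far apart. ESRP1 and ESRP2, which set the epithelial form of spliced messages, fell by 1.75 (SE 0.10, adjusted p = 5.10e-07) and 1.82 (SE 0.10, adjusted p = 5.86e-07) on the log2 scale. ESRP1 had 24.8 and 25.4 CPM in AL_DCF, against 92.7 and 76.6 CPM in ST_DCF.

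Cell junction genes fell with them. CDH1, the E-cadherin of adherens junctions on chromosome 16 (68737292 to 68835537), had 79.2 and 83.3 CPM in AL_DCF, against 415 and 348 CPM in ST_DCF, a log2 fold change of −2.23 (SE 0.09, adjusted p = 7.91e-08). CDH3, the P-cadherin of basal layers, had 90.5 and 87.9 CPM in AL_DCF, against 422 and 359 CPM in ST_DCF (log2 fold change −2.13, SE 0.09, adjusted p = 7.91e-08). For both cadherins the groups lay far apart and did not overlap. Of 18 genes of adherens junctions and desmosomes, 15 fell and 1 rose, with a median of −0.77. The 15 stayed between 11 and 14 when a library was left out. JUP, the plakoglobin that links cadherins to the cytoskeleton, had 176 and 154 CPM in AL_DCF, against 355 and 345 CPM in ST_DCF, and PKP3, a plaque protein of desmosomes, had 38.3 and 31.4 CPM, against 103 and 96.5 CPM.

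Of 18 tight junction genes, 14 fell and none rose, with a median of −0.997, and 13 to 15 fell when any library was left out. CLDN7, a claudin, had 75.2 and 70.5 CPM in AL_DCF, against 315 and 326 CPM in ST_DCF, a log2 fold change of −2.14 (SE 0.08, adjusted p = 6.58e-08). CLDN4, another claudin, had 60.8 and 56.9 CPM in AL_DCF, against 190 and 183 CPM in ST_DCF (log2 fold change −1.66, SE 0.09, adjusted p = 2.75e-07). OCLN, the occludin of the junction strand, had 21.4 and 22.7 CPM in AL_DCF, against 52.4 and 43.2 CPM in ST_DCF, a log2 fold change of −1.12 (SE 0.12, adjusted p = 5.68e-05). MARVELD3 and CGN, a strand protein and a scaffold of the junction, had log2 fold changes of −1.98 (SE 0.11) and −1.33 (SE 0.10).

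**Figure D2:**
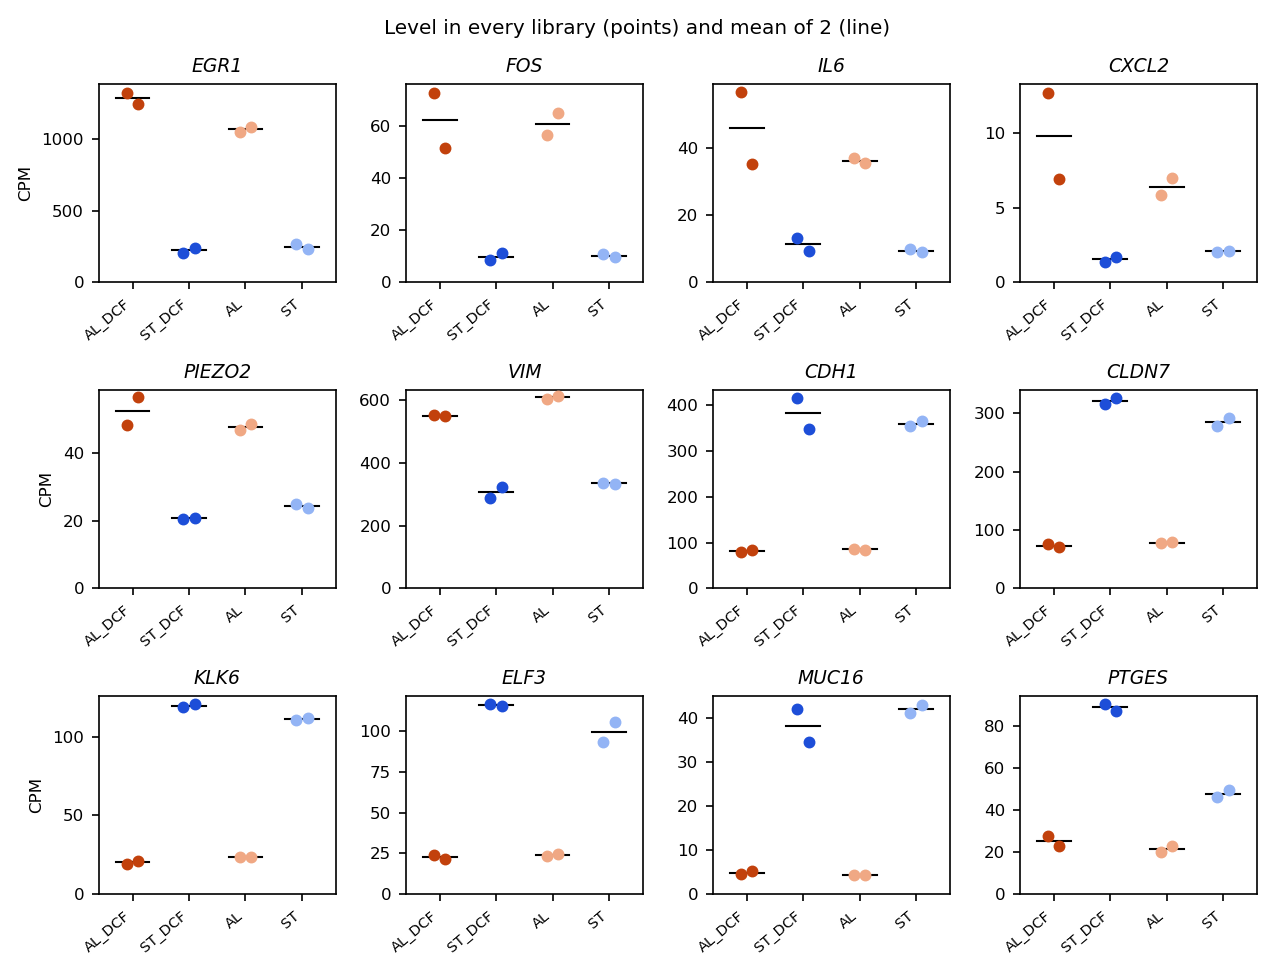
CPM of 12 genes in each library, with AL_DCF, ST_DCF, AL and ST from left to right, points for libraries and a line for the mean of 2; each vertical axis starts at 0. EGR1, FOS, IL6, CXCL2, PIEZO2 and VIM stood higher in both AL_DCF libraries than in both ST_DCF libraries, and CDH1, CLDN7, KLK6, ELF3, MUC16 and PTGES stood lower.

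CAGGTG is a form of the E-box that repressors of epithelial genes such as ZEB and SNAI proteins are known to bind, and the stretches before the starts of CRB3 and ELF3 are shown because they hold it and their genes fell. CRB3, a polarity protein of tight junctions chosen for its sequence after its values were seen, had a log2 fold change of −1.81 (SE 0.18, adjusted p = 3.80e-05). The capitals mark CAGGTG on either strand, 5 times in CRB3 from 228 to 60 bases before the start, and 1 time in ELF3, 120 bases before it. The CRB3 stretch is chr19:6464031-6464270 and the ELF3 stretch chr1:202010437-202010586, both on the plus strand and from RefSeq, GRCh38.p14.
CRB3: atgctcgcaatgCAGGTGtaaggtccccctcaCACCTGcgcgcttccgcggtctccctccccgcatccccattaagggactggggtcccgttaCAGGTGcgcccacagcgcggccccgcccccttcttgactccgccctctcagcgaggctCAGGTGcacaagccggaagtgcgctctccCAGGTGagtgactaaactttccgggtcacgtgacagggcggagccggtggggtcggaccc
ELF3: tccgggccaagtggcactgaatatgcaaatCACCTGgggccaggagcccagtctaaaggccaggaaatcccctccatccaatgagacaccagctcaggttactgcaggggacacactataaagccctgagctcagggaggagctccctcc
Of 60 genes of junctions, keratins, proteases and epithelial transcription factors that fell, 33 had a promoter in the table, and 19 of these held CAGGTG. That was 20 of their 47 windows (42.6%), beside 20.6% of all 35116 windows. The genes were chosen by their fall in these libraries, and no test was made.

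Keratins and the proteases of the surface layers fell as well. Of 12 keratins tested, 10 fell and none rose, with a median of −1.23. KRT8 and KRT18, the keratin pair of simple epithelia, had log2 fold changes of −1.09 (SE 0.08) and −1.25 (SE 0.09). KRT8 had 932 and 973 CPM in AL_DCF, against 2095 and 1949 CPM in ST_DCF. KRT19 had 190 and 189 CPM in AL_DCF, against 636 and 745 CPM in ST_DCF (log2 fold change −1.86, SE 0.09, adjusted p = 1.63e-07). KRT5 fell by 1.98 on the log2 scale, and KRT14, its partner, was near the detection limit in every library, with 0.515 and 0.744 CPM in AL_DCF, against 1.28 and 0.441 CPM in ST_DCF. Of 10 kallikreins, related proteases and inhibitors, 9 fell, also whenever 1 library was left out, with a median of −1.93, the lowest of all groups examined. KLK6, a serine protease of the kallikrein cluster on chromosome 19 (50958631 to 50969591), had the smallest p of the named genes, with 19.4 and 21.3 CPM in AL_DCF, against 119 and 120 CPM in ST_DCF (log2 fold change −2.55, SE 0.08, adjusted p = 2.91e-08). ST14, the matriptase that activates other surface proteases, had 34.3 and 33.8 CPM in AL_DCF, against 139 and 141 CPM in ST_DCF, and PRSS8, the prostasin it acts with, had 34.6 and 30.9 CPM, against 132 and 129 CPM. SPINT1 and SPINT2, inhibitors of these proteases, had log2 fold changes of −1.63 and −1.18.

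Of 14 genes of the cornified envelope, 7 fell and none rose (median −0.86). PPL, the periplakin that ties desmosomes to the envelope, had 46.8 and 53.3 CPM in AL_DCF, against 154 and 128 CPM in ST_DCF (log2 fold change −1.49, SE 0.11, adjusted p = 3.45e-06), and TGM1, the transglutaminase that links envelope proteins, had 5.40 and 7.33 CPM, against 11.6 and 14.7 CPM. Mucins were lower or did not pass the test: of 9 mucins and tear-film genes, 5 fell. MUC16, a membrane-spanning mucin of the ocular surface on chromosome 19 (8848844 to 9065751), had 4.66 and 5.25 CPM in AL_DCF, against 42.0 and 34.7 CPM in ST_DCF, a log2 fold change of −2.95 (SE 0.13, adjusted p = 7.91e-08). MUC20 had 2.06 and 1.71 CPM in AL_DCF, against 9.27 and 11.6 CPM in ST_DCF, and MUC1, a further membrane mucin, had 11.7 and 10.7 CPM, against 20.6 and 18.7 CPM. MUC4 and MUC6 fell at levels under 1 CPM, with log2 fold changes of −1.31 (SE 0.38) and −2.27 (SE 0.55), and both calls were lost without either AL_DCF library or without ST_DCF replicate 1, each of which left 3 mucins lower, and the MUC4 call was also lost without ST_DCF replicate 2. MUC2 did not pass the test (log2 fold change −0.62, SE 0.28, adjusted p = 0.151).

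**Figure D3:**
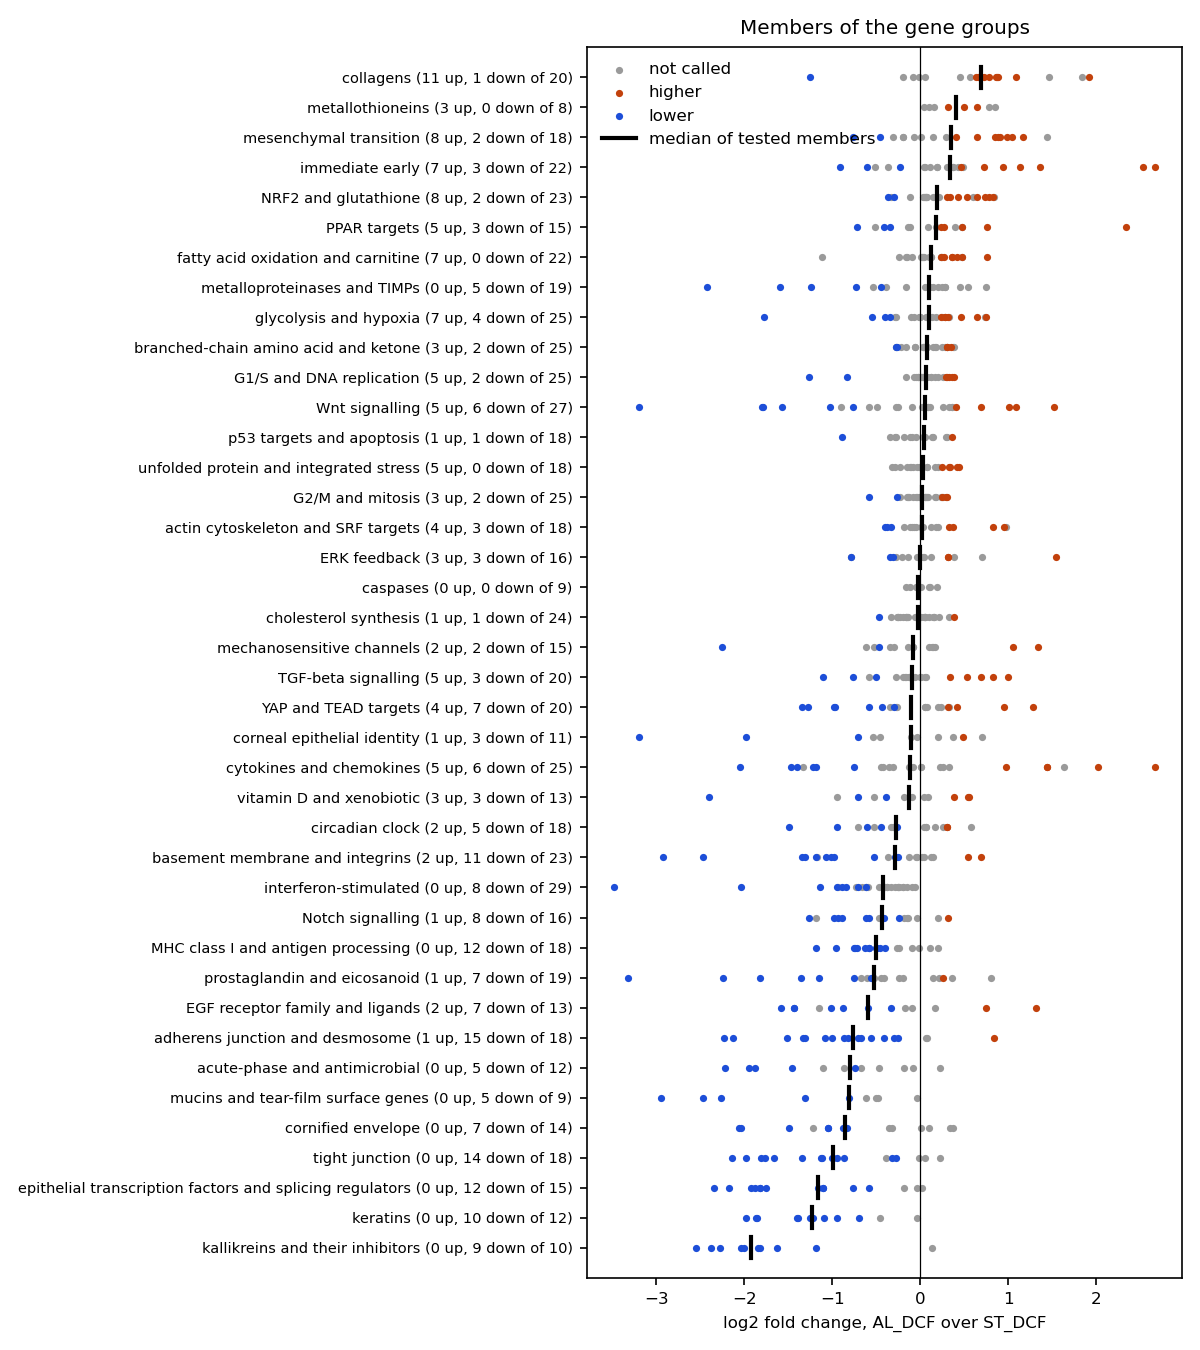
Log2 fold change of AL_DCF over ST_DCF for the tested members of 40 gene groups, 1 point per gene, coloured where the gene was called, with a bar at each group's median; the counts beside each name give the members up, down and tested. Kallikreins, keratins, epithelial transcription factors and tight junction genes lie left of 0 almost as a whole, and collagens mostly right of it.

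Genes of mesenchymal cells moved in the other direction, by less and with exceptions. Of 18 such genes, 8 rose and 2 fell (median 0.35), the 2 being 4 without ST_DCF replicate 2 and 1 without AL_DCF replicate 2 or ST_DCF replicate 1. VIM, the intermediate filament of mesenchymal cells on chromosome 10 (17228241 to 17237593), had 552 and 548 CPM in AL_DCF, against 287 and 323 CPM in ST_DCF, a log2 fold change of 0.85 (SE 0.08, adjusted p = 2.44e-05). CDH2, the N-cadherin, had 201 and 232 CPM in AL_DCF, against 115 and 119 CPM in ST_DCF (log2 fold change 0.89, SE 0.09, adjusted p = 3.34e-05). ZEB2, a repressor of CDH1, had 49.3 and 55.1 CPM in AL_DCF, against 22.4 and 23.9 CPM in ST_DCF, a log2 fold change of 1.17 (SE 0.10, adjusted p = 1.59e-05). The other repressors SNAI1, SNAI2 and TWIST1 did not pass the test, with log2 fold changes of −0.20, 0.29 and −0.07, and FN1, the fibronectin gene, had −0.31. FBN1, the fibrillin of microfibrils, rose to 118 and 139 CPM in AL_DCF, against 69.3 and 67.9 CPM in ST_DCF.

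Collagens rose more evenly: 11 of 20 were higher and 1 was lower, with a median of 0.69, and 11 to 13 were higher when any library was left out. COL4A1 and COL4A2, the chains of basement membrane collagen, had log2 fold changes of 0.86 (SE 0.10, adjusted p = 9.21e-05) and 0.87 (SE 0.08, adjusted p = 3.34e-05). COL4A2 had 237 and 241 CPM in AL_DCF, against 123 and 139 CPM in ST_DCF. COL18A1, the source of endostatin, had 177 and 173 CPM in AL_DCF, against 111 and 107 CPM in ST_DCF, and COL5A3 had 66.2 and 79.0 CPM, against 38.4 and 29.9 CPM. COL8A1, a network collagen known from Descemet's membrane, had 6.18 and 7.14 CPM in AL_DCF, against 2.34 and 1.15 CPM in ST_DCF, a log2 fold change of 1.92 (SE 0.29, adjusted p = 0.000858). COL1A2 and COL3A1, collagens of fibroblasts, did not pass the test: COL3A1 had 3.07 and 1.66 CPM in AL_DCF, against 0.964 and 0.324 CPM in ST_DCF (log2 fold change 1.84, SE 0.82, adjusted p = 0.139). COL1A2 had 0.582 and 0.569 CPM in AL_DCF, against 0.234 and 0.177 CPM in ST_DCF (log2 fold change 1.46, SE 1.14, adjusted p = 0.409). The AL libraries, part of the same fit, differed widely, with 0.335 and 6.07 CPM for COL1A2 and 3.29 and 21.7 CPM for COL3A1.

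Of 23 receptors and anchors of the basement membrane, 11 fell, 2 rose and 10 did not pass the test (median −0.29), or 5 higher without ST_DCF replicate 1. ITGB6, the β6 integrin of epithelia, had 6.90 and 6.28 CPM in AL_DCF, against 38.9 and 34.2 CPM in ST_DCF (log2 fold change −2.47, SE 0.12, adjusted p = 1.77e-07). ITGB4, the integrin of hemidesmosomes, had 78.9 and 76.5 CPM in AL_DCF, against 151 and 157 CPM in ST_DCF, and LAMB3, a chain of the laminin it binds, had 218 and 181 CPM, against 521 and 387 CPM. NPNT, nephronectin, had 0.538 and 0.832 CPM in AL_DCF, against 4.90 and 5.50 CPM in ST_DCF. Of 19 metalloproteinases and inhibitors, 5 fell and none rose, 2 to 5 when a library was left out, with the fewest without AL_DCF replicate 2 and 3 without ST_DCF replicate 1, where 3 rose. ADAM8, a metalloproteinase that sheds surface proteins, had 68.2 and 49.1 CPM in AL_DCF, against 184 and 171 CPM in ST_DCF (log2 fold change −1.60, SE 0.13, adjusted p = 7.02e-06). MMP1, MMP2, MMP9 and MMP17 did not pass the test. MMP1, the interstitial collagenase, varied between replicates, with 90.6 and 45.5 CPM in AL_DCF, against 56.9 and 24.0 CPM in ST_DCF, and the groups overlapped.

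Cytokines split. CXCL2, a chemokine for neutrophils, had 12.72 and 6.94 CPM in AL_DCF, against 1.38 and 1.71 CPM in ST_DCF, a log2 fold change of 2.67 (SE 0.29, adjusted p = 6.55e-05). IL6, the acute-phase interleukin on chromosome 7 (22727200 to 22731998), had 56.4 and 35.1 CPM in AL_DCF, against 13.3 and 9.26 CPM in ST_DCF (log2 fold change 2.02, SE 0.21, adjusted p = 5.59e-05). Both rose although their 2 AL_DCF libraries differed by over 1.5 times. Of 25 cytokines and chemokines, 5 rose and 6 fell, and 3 rose without AL_DCF replicate 1. The other 3 that rose were CXCL1, CXCL3 and CXCL8, of the same chemokine family as CXCL2, with log2 fold changes of 0.98, 1.44 and 1.44. LIF and CXCL16 fell: LIF, a relative of IL-6, had 73.5 and 67.8 CPM in AL_DCF, against 149 and 174 CPM in ST_DCF (log2 fold change −1.19, SE 0.09, adjusted p = 5.04e-06), and CXCL16 had 36.4 and 36.6 CPM, against 79.9 and 90.1 CPM. CCL5 did not pass the test, with 4.41 and 10.7 CPM in AL_DCF, against 9.92 and 6.44 CPM in ST_DCF.

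Of 12 acute-phase and antimicrobial genes, 5 fell, none rose and 7 did not pass the test, with 3 lower without AL_DCF replicate 2 and 2 without ST_DCF replicate 2. SLPI, an inhibitor of leukocyte elastase, had 8.47 and 7.29 CPM in AL_DCF, against 24.8 and 36.3 CPM in ST_DCF (log2 fold change −1.95, SE 0.17, adjusted p = 1.27e-05). LCN2, a siderophore-binding lipocalin, and SAA1, serum amyloid A, fell with wide errors, LCN2 to 9.57 and 5.76 CPM in AL_DCF, against 13.3 and 29.0 CPM in ST_DCF, and both calls were lost without AL_DCF replicate 2 or without ST_DCF replicate 2. Of 18 genes of MHC class I and antigen processing, 12 fell and none rose, with a median of −0.50, and 10 to 12 fell when any library was left out. HLA-F had 85.3 and 94.2 CPM in AL_DCF, against 194 and 215 CPM in ST_DCF, a log2 fold change of −1.19 (SE 0.09, adjusted p = 3.87e-06). HLA-C, a classical class I chain, had 882 and 910 CPM in AL_DCF, against 1363 and 1640 CPM in ST_DCF (log2 fold change −0.75, SE 0.09, adjusted p = 0.000202). HLA genes share much sequence, so reads may have been split among them.

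Of 29 interferon-stimulated genes tested, 8 fell and none rose, with a median of −0.42, and every member had a log2 fold change under 0. The count rested on single libraries: 24 fell without AL_DCF replicate 2, 5 without AL_DCF replicate 1 and 5 without ST_DCF replicate 2. GBP6, a guanylate-binding protein, had the largest fall of all named genes, with 0.560 and 0.350 CPM in AL_DCF, against 4.38 and 5.82 CPM in ST_DCF (log2 fold change −3.48, SE 0.31, adjusted p = 1.78e-05). IRF7, which drives type I interferon, had 7.62 and 7.75 CPM in AL_DCF, against 31.0 and 32.1 CPM in ST_DCF, a log2 fold change of −2.04 (SE 0.15, adjusted p = 3.45e-06). IFI6 varied between the AL_DCF libraries, with 560 and 855 CPM, against 1224 and 1514 CPM in ST_DCF.

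Prostaglandin genes are the ones nearest to the action of DCF, which both groups received. Of 19 genes of prostaglandin and eicosanoid synthesis, transport and reception, 7 fell and 1 rose (median −0.53), and 5 to 9 fell when any library was left out, while the 1 that rose kept its call only where an ST_DCF library was the one left out. PTGES, the inducible synthase of prostaglandin E2 on chromosome 9 (129738349 to 129753042), had 27.7 and 22.8 CPM in AL_DCF, against 90.5 and 87.4 CPM in ST_DCF (log2 fold change −1.82, SE 0.11, adjusted p = 7.19e-07). PTGIS, the prostacyclin synthase, had 0.806 and 0.766 CPM in AL_DCF, against 11.1 and 4.59 CPM in ST_DCF, a log2 fold change of −3.32 (SE 0.38, adjusted p = 0.000113). ALOX5, the first enzyme of leukotriene synthesis, had 0.874 and 1.05 CPM in AL_DCF, against 4.61 and 4.50 CPM in ST_DCF. SLCO2A1, the prostaglandin uptake carrier, had 11.8 and 13.7 CPM in AL_DCF, against 33.8 and 22.6 CPM in ST_DCF (log2 fold change −1.15, SE 0.17, adjusted p = 0.000614). Without DCF, the log2 fold changes of AL over ST were −1.16 for PTGES, −1.80 for PTGIS, −1.74 for ALOX5 and −0.32 for SLCO2A1. All but that of SLCO2A1 were called, and the interaction was called for none of these genes. PTGES had 46.08 and 49.75 CPM in ST, below its level in ST_DCF. PTGS1 and PTGS2, the cyclooxygenases that DCF blocks, were not called, with log2 fold changes of −0.24 and −0.60.

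Of 15 PPAR targets and receptors, 5 rose and 3 fell, with 3 higher when any single AL or ST library or ST_DCF replicate 1 was left out, and 1 lower without AL_DCF replicate 1 or ST_DCF replicate 1. ANGPTL4, a secreted inhibitor of lipoprotein lipase, rose the most, with 47.9 and 31.3 CPM in AL_DCF, against 10.5 and 4.97 CPM in ST_DCF (log2 fold change 2.34, SE 0.27, adjusted p = 0.00012). CPT1A, which commits fatty acids to mitochondrial oxidation by loading carnitine, had 87.0 and 78.5 CPM in AL_DCF, against 51.8 and 46.1 CPM in ST_DCF, a log2 fold change of 0.76 (SE 0.10, adjusted p = 0.000304). SLC25A20, the carrier of acylcarnitine, had 19.2 and 17.6 CPM in AL_DCF, against 13.2 and 13.2 CPM in ST_DCF. The counts for PPAR genes and for fatty acid oxidation are set beside 9.38% higher and 11.4% lower over all genes. Of 22 genes of fatty acid oxidation, 7 rose and none fell, 3 without ST_DCF replicate 1 and 4 without either ST library, and their median was 0.13. ACAT1, which acts in ketone and isoleucine breakdown, had a small rise of 0.30 (SE 0.08, adjusted p = 0.0270), lost without any single library other than AL_DCF replicate 1 or ST_DCF replicate 1, and SLC16A7, a monocarboxylate carrier, did not pass the test (0.38, SE 0.14, adjusted p = 0.0748).

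Genes of the NRF2 pathway, which guards against oxidants, leaned upwards: 8 of 23 rose and 2 fell (median 0.19), with 5 higher without ST_DCF replicate 1, and 1 lower without any library other than AL_DCF replicate 1 or ST_DCF replicate 2. NQO1, a quinone reductase, had 580 and 554 CPM in AL_DCF, against 309 and 348 CPM in ST_DCF (log2 fold change 0.79, SE 0.08, adjusted p = 4.94e-05). FTL, the ferritin light chain, had 1782 and 1583 CPM in AL_DCF, against 952 and 1060 CPM in ST_DCF, and TXNRD1, thioredoxin reductase, had 664 and 756 CPM, against 455 and 456 CPM. GSS, glutathione synthetase, went against these, with 131 and 133 CPM in AL_DCF, against 172 and 169 CPM in ST_DCF (log2 fold change −0.37, SE 0.07, adjusted p = 0.00404). The counts of this group and the next are set beside 9.38% higher and 11.4% lower over all genes. Of 25 genes of glycolysis and hypoxia, 7 rose and 4 fell, with BNIP3, a mitophagy receptor, at 38.4 and 40.4 CPM in AL_DCF, against 24.3 and 22.5 CPM in ST_DCF. The 7 became 4 without AL replicate 2, either ST library, AL_DCF replicate 2 or ST_DCF replicate 1, and the 4 became 2 without AL_DCF replicate 2 or ST_DCF replicate 1.

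Genes of growth factor pathways moved both ways, and their counts are set beside 9.38% higher and 11.4% lower over all genes. Of 13 genes of EGF receptors and ligands, 7 fell and 2 rose (median −0.60), the 2 being 1 without AL_DCF replicate 1 or without any single AL or ST library. ERBB3, a receptor for neuregulin, had 40.6 and 40.9 CPM in AL_DCF, against 117 and 104 CPM in ST_DCF (log2 fold change −1.44, SE 0.08, adjusted p = 6.03e-07). TGFA, a ligand of the EGF receptor, had 40.8 and 42.0 CPM in AL_DCF, against 86.0 and 81.7 CPM in ST_DCF, while LRIG1, a brake on these receptors, rose to 19.0 and 17.5 CPM in AL_DCF, against 6.49 and 8.15 CPM in ST_DCF. Of 27 Wnt genes, 5 rose and 6 fell, the 5 being 3 without AL_DCF replicate 1. WNT7A, a ligand known from corneal epithelium, had 0.493 and 1.05 CPM in AL_DCF, against 9.43 and 4.79 CPM in ST_DCF (log2 fold change −3.20, SE 0.38, adjusted p = 0.000152). FRZB, a secreted Wnt antagonist, rose to 11.6 and 11.9 CPM in AL_DCF, against 4.43 and 3.74 CPM in ST_DCF. Of 16 Notch genes, 8 fell and 1 rose, 4 and 0 without AL_DCF replicate 2 and 5 and 0 without ST_DCF replicate 2, and NOTCH1, a receptor, had 52.4 and 47.7 CPM in AL_DCF, against 98.6 and 86.4 CPM in ST_DCF. TGFB1, the transforming growth factor, did not pass the test (log2 fold change −0.18, SE 0.07, adjusted p = 0.114).

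Of 13 vitamin D and xenobiotic genes, 3 rose and 3 fell, with 1 higher and 5 lower without ST_DCF replicate 2. Over all genes 9.38% were higher and 11.4% lower. CYP24A1, the enzyme that inactivates the hormone, was at 1.28 and 0.744 CPM in AL_DCF, against 7.16 and 3.47 CPM in ST_DCF (log2 fold change −2.40, SE 0.37, adjusted p = 0.000847). In the drug-free ST libraries CYP24A1 had 2.41 and 2.04 CPM. Its log2 fold change of AL over ST was −0.91 and was not called (SE 0.37, adjusted p = 0.120). VDR, the receptor of the hormone, was at 70.5 and 70.3 CPM in AL_DCF, against 92.7 and 92.1 CPM in ST_DCF. STRA6, the cell surface receptor for retinol transport, had 9.12 and 7.29 CPM in AL_DCF, against 72.9 and 55.2 CPM in ST_DCF, a log2 fold change of −2.97 (SE 0.15, adjusted p = 2.94e-07). Further large falls were those of TNS4, a tensin of focal adhesions (−2.64), TMPRSS2, a surface protease (−3.09), CDH5, known as the cadherin of endothelium (−2.65), CCDC33 (−2.96), LOC105373551 (−2.76) and LOC105373985 (−2.64). TMPRSS2 varied between the static libraries, with 0.582 and 0.766 CPM in AL_DCF, against 8.41 and 3.09 CPM in ST_DCF. Its log2 fold change of AL over ST, without DCF, was −0.68 and was not called (SE 0.45, adjusted p = 0.334). Further large rises were those of IL7R, a cytokine receptor (1.89), KIT, the receptor for stem cell factor (1.77), VAT1L (1.73) and DPY19L2 (1.74).

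Calls among caspases, p53 targets and genes of cholesterol synthesis were under the background of 20.7%. None of the 9 caspases tested was called by edgeR's quasi-likelihood test, 0 had an unadjusted p under 0.05 and 0 were called by DESeq2, with log2 fold changes from −0.16 to 0.19. Of 18 p53 targets 1 rose and 1 fell, and of 24 genes of cholesterol synthesis 1 rose and 1 fell, with 0 to 4 p53 targets higher and 0 to 2 cholesterol genes lower when a library was left out. Of 25 genes of G1/S and DNA replication 5 rose and 2 fell, beside 9.38% higher and 11.4% lower over all genes, with 2 higher without AL_DCF replicate 2 or ST_DCF replicate 1 and 7 without ST_DCF replicate 2. Of 25 genes of mitosis 3 rose and 2 fell, with 0 higher without AL_DCF replicate 2 or either ST library. Without AL_DCF replicate 1, 4 p53 targets and 1 caspase were higher. CCND1, cyclin D1, was an exception in size, with 122 and 127 CPM in AL_DCF, against 331 and 266 CPM in ST_DCF (log2 fold change −1.26, SE 0.11, adjusted p = 1.40e-05).

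The remaining groups are set beside 9.38% higher and 11.4% lower over all genes. Among them, 4 of 18 genes of the actin cytoskeleton rose and 3 fell, and 5 of 20 genes of TGF-beta signalling rose and 3 fell. Near those shares, 3 of 25 genes of branched-chain amino acid and ketone breakdown rose and 2 fell. In the unfolded protein response 5 of 18 genes rose and 0 fell, and 3 of 8 metallothionein genes rose and 0 fell. Clock genes had 2 of 18 higher and 5 lower. These counts rested on single libraries. The fewest higher were 1 actin gene without AL_DCF replicate 1 or ST_DCF replicate 1, 2 TGF-beta genes without either ST library, 0 branched-chain genes without AL_DCF replicate 2, 1 gene of the unfolded protein response without either ST library, 1 metallothionein gene without AL_DCF replicate 2 and 0 clock genes without ST_DCF replicate 1. The fewest lower were 0 branched-chain genes without any single AL or ST library and 2 clock genes without AL_DCF replicate 2. In the 10 groups in which no gene was higher, caspases aside, 3 of 156 genes were higher at an unadjusted p under 0.05 and 0 by DESeq2, and in the 3 groups in which no gene was lower, 4 of 48 were lower at an unadjusted p under 0.05 and 0 by DESeq2.

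The same stimulus without DCF gave a separate comparison, AL against ST, which shares no library with AL_DCF against ST_DCF. There 3124 genes (17.9%) were called. Called in both comparisons and in the same direction were 1847 genes, or 51.0% of the calls with DCF and 59.1% of those without, and 13 were called in opposite directions. Of the genes called with DCF, 93.4% had the same sign without it. The log2 fold changes of the 2 comparisons had a Pearson r of 0.62 over the 17445 genes, which is a correlation across genes within 1 experiment and no replicate count. The epithelial groups had like medians without DCF: −1.75 for kallikreins, −0.90 for keratins, −0.99 for tight junction genes and −1.08 for epithelial transcription factors. Some other groups were less alike. Acute-phase and antimicrobial genes had a median of −0.80 with DCF and −1.77 without. Of 18 p53 targets 1 was lower with DCF and 10 without, and of 25 mitosis genes 3 were higher with DCF and 10 without. The interaction was called for 0 members of these 3 groups. CDH1 had a log2 fold change of −2.08 without DCF and FOS one of 2.57.

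**Figure D4:**
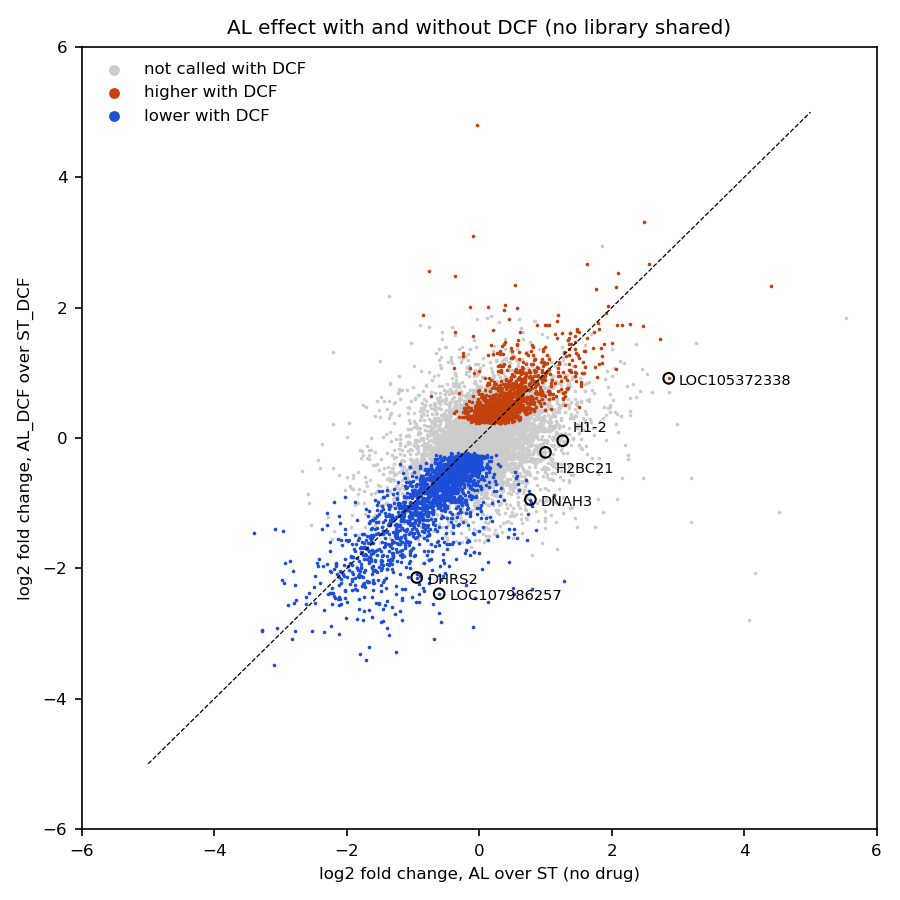
Log2 fold change of AL_DCF over ST_DCF (vertical axis) against that of AL over ST (horizontal axis), 1 point per gene, coloured where called with DCF, with a dashed line of equal change. Most coloured points lie in the quadrants of like sign, and the 6 circled genes lie below the line.

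The difference between the effects of the AL stimulus with and without DCF was tested as an interaction. It was called in 6 genes (0.0344%), all with the more negative effect under DCF. At an unadjusted p under 0.05 it held for 1963 genes (11.3%), DESeq2 called 144, and leaving out a library gave 0 to 189 calls, so the number of such genes is not settled by these libraries. DHRS2, a short-chain dehydrogenase on chromosome 14 (23630115 to 23645639), had 54.6 and 63.1 CPM in AL_DCF, against 266 and 251 CPM in ST_DCF. Without the drug it had 126 and 128 CPM in AL, against 235 and 253 CPM in ST. The stimulus thus lowered DHRS2 in both settings, by 2.14 on the log2 scale with DCF (SE 0.09, adjusted p = 7.91e-08) and by 0.94 without (SE 0.09), and the 2 effects differed by −1.19 (SE 0.12, adjusted p = 0.00455). H1-2, a linker histone, had 48.8 and 42.3 CPM in AL_DCF, against 49.6 and 44.0 CPM in ST_DCF, while it had 107 and 113 CPM in AL, against 44.8 and 47.3 CPM in ST. It rose with the stimulus in the drug-free libraries (log2 fold change 1.26, SE 0.09) and did not pass the test with DCF (−0.04, SE 0.09), a difference of −1.30 (SE 0.13, adjusted p = 0.00455). H2BC21, a core histone, had a like pattern, with 13.1 and 13.7 CPM in AL_DCF, against 16.6 and 14.6 CPM in ST_DCF, and 29.1 and 33.2 CPM in AL, against 15.8 and 15.3 CPM in ST.

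DNAH3, a heavy chain of axonemal dynein on chromosome 16 (20933111 to 21159459), went in opposite directions: it fell to 18.4 and 15.5 CPM in AL_DCF, against 36.2 and 28.9 CPM in ST_DCF, and rose to 49.0 and 45.7 CPM in AL, against 28.6 and 26.9 CPM in ST. Its log2 fold changes were −0.94 (SE 0.13) with DCF and 0.77 (SE 0.12) without, a difference of −1.71 (SE 0.17, adjusted p = 0.00455). The other 2 genes are loci named by number only, LOC105372338 on chromosome 19 and LOC107986257. LOC105372338 had 16.3 and 13.1 CPM in AL_DCF, against 9.38 and 6.15 CPM in ST_DCF, and 28.5 and 29.9 CPM in AL, against 4.05 and 3.99 CPM in ST. LOC107986257 had 1.68 and 1.60 CPM in AL_DCF, against 9.06 and 8.18 CPM in ST_DCF, and 3.67 and 4.00 CPM in AL, against 5.86 and 5.79 CPM in ST.

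**Figure D5:**
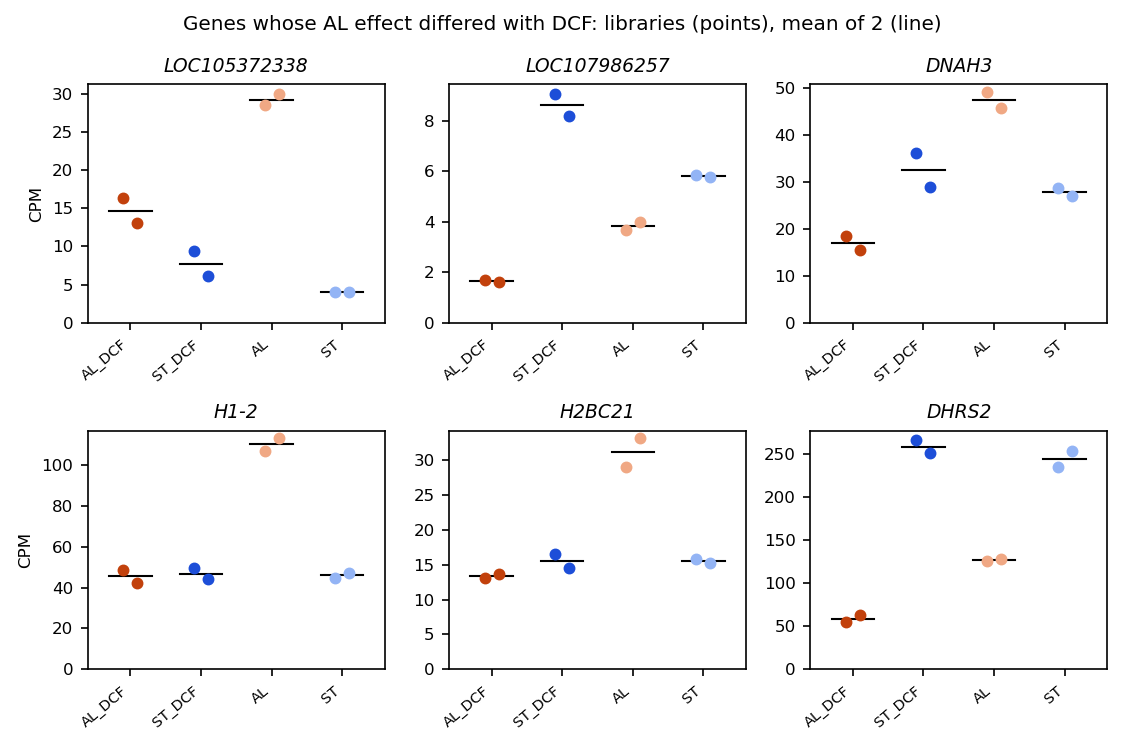
CPM of the 6 genes whose AL effect differed with DCF, in each library (points) with the mean of 2 (line), groups AL_DCF, ST_DCF, AL and ST from left to right and each vertical axis from 0. H1-2 and H2BC21 stand high in AL alone, and DNAH3 is lowest in AL_DCF and highest in AL.

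Some markers of other cell types moved with the groups. Of 6 fibroblast or keratocyte markers, 3 were tested, and their summed level was 22.9 and 21.6 CPM in AL_DCF, against 24.8 and 21.4 CPM in ST_DCF, while PDGFRB, 1 of the 3, was called at 3.20 and 4.62 CPM in AL_DCF, against 2.21 and 2.56 CPM in ST_DCF, a call lost without any of 7 of the libraries. The 4 endothelial markers summed to 4.79 and 3.65 CPM in AL_DCF, against 21.2 and 13.9 CPM in ST_DCF. Of these sums CDH5 made up 3.16 and 1.95 CPM in AL_DCF and 19.5 and 12.6 CPM in ST_DCF. PECAM1, VWF and TEK were each under 1 CPM in these 4 libraries. The 3 of 4 leukocyte markers tested summed to 69.4 and 63.0 CPM in AL_DCF, against 73.6 and 70.3 CPM in ST_DCF, nearly all from CD68, while CD14, a monocyte marker, was called lower, with no AL_DCF library reaching the 4.00 CPM of the lower ST_DCF library. The 2 of 3 neuron markers tested, nearly all of it TUBB3, a neuronal tubulin, summed to 177 and 156 CPM in AL_DCF, against 137 and 147 CPM in ST_DCF, and neither was called, although 1 was without AL_DCF replicate 2. The 1 of 3 melanocyte markers tested had 5.87 and 4.66 CPM in AL_DCF, against 6.12 and 5.76 CPM in ST_DCF. The part of these cell type markers in the results above was not tested. The 14 ribosomal RNA genes took 2.63% and 2.49% of the counts in AL_DCF, against 1.61% and 1.84% in ST_DCF, although the library kit selects messenger RNA. RNA28SN1 had 6840 and 6560 CPM in AL_DCF, against 3890 and 4340 CPM in ST_DCF. It rose with RNA28SN2 and RNA28SN3, with log2 fold changes of 0.705, 0.701 and 0.584 (adjusted p = 0.000552, 0.000671 and 0.003). RNR1 and RNR2, the mitochondrial ribosomal RNA genes, also rose, by 0.475 and 0.427 (adjusted p = 0.0101 and 0.0111). Their log2 fold changes of AL over ST, without DCF, were −0.177 and −0.217 and were not called. RNA45SN3, an rRNA precursor of a multi-copy family whose reads cannot be assigned to 1 copy, had 777 and 1630 CPM in AL_DCF, against 244 and 343 CPM in ST_DCF, while RNA45SN1 had 358 and 240 CPM, against 238 and 250 CPM, and like RNA45SN2 and the 3 RNA18S genes did not pass the test. RPL41P3, a pseudogene, is likewise uncertain. The part of this shift in RNA composition in the results above was not tested. In these bulk libraries fewer cells of a kind and less RNA per cell cannot be told apart.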

How the data were processed

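RNA from HCE-T cells was sequenced in 4 conditions with 2 libraries each. Per the labels and the study's methods, the authors used a stranded mRNA kit, FastQC 0.11.7, Trimmomatic 0.38, HISAT2 2.1.0 with Bowtie2 2.3.5.1, and StringTie 2.1.3b on GRCh38. The count of each gene is deposited by the authors without normalization. FPKM and TPM values, scaled by length and depth, were also computed by the authors with StringTie. The deposited log2 values are the authors' normalized log2 counts and were not used for tests. A further 12 columns hold the authors' own comparisons and were not used.

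Counts were analysed in R 4.3.3 with edgeR 4.0.16, with filterByExpr by condition, TMM factors and a quasi-likelihood fit of 4 group means on all 8 libraries. All adjusted p-values are from this test over 17445 genes unless another tool is named. CPM is the count scaled to the library total times its TMM factor. The biological coefficient of variation was 9.48%. The lists and the genes were chosen with earlier results of these data known. Named genes were the 12 highest and 12 lowest called genes with an average log2 CPM above 1, the 4 smallest p-values (or fewer) in each list, the genes that the study's text names, the interaction calls and cell type markers. Any other list member named was chosen after its values were seen. Tried as alternatives were DESeq2 1.42.0, scaling by RLE or by upper quartiles, dropping the filter or asking for 10 counts in each library, a fit to the 4 libraries alone, a replicate block, limma 3.58.1 after log2 of FPKM plus 1 or plus 0.1, edgeR's exact test, a fold of 2, thinning, and each library left out in turn. The fits were tested on simulated data. Positions and promoters came from RefSeq GRCh38.p14, in which 17247 genes were found.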

Additional observations from a re-analysis of the deposited data

Results flagged for a closer look

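In 6 genes the effect of the AL stimulus differed with and without DCF by the test of the difference itself, edgeR's interaction term over 17445 genes. The differences in log2 fold change, with DCF minus without, were −1.94 for LOC105372338, −1.79 for LOC107986257, −1.71 for DNAH3, −1.30 for H1-2, −1.22 for H2BC21 and −1.19 for DHRS2. When each of the 8 libraries was left out in turn, DNAH3 was called 6 times, H1-2 and DHRS2 were called 5 times each, and the other 3 genes 2 times each, with the sign kept in all of these fits.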

How the results depend on the processing

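The counts of 1636 higher and 1983 lower genes stayed within 1.5 times under DESeq2, other scaling factors, other filters, thinning and limma on FPKM. Fitting the 4 libraries alone gave 562 higher genes, edgeR's exact test at a fold of 2 and an unadjusted p gave 277 higher and 922 lower genes, and a fold of at least 2 beside the adjusted p gave 175 and 740. Without 1 library the counts ranged from 961 to 1599 higher and from 1396 to 1978 lower, and where a group was left with 1 library it was assumed to vary like the others. The interaction gave 144 calls by DESeq2, 3 with no filter, 0 with limma on FPKM at either pseudocount, and 0 to 189 without 1 library. Replicate numbers did not pair the samples, as deviations of libraries with the same number correlated between −0.10 and 0.10. With the replicate block 1456 genes were higher, 1892 lower and 8 had an interaction. Of 173 named genes that were called, 83 kept direction and call under every alternative other than those with a fold of 2, and 0 reversed. With 2 libraries a group, small changes and genes under about 1 CPM are the least certain.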
